A study of Homo sapiens with 12 samples.

Results

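The 10 genes described here are genes whose RNA was lower with a MYC vector than with a control vector in 3 human cancer cell lines, and each is given in all 12 libraries of the study. They were named by symbol from their measured difference between MYC-vector and control-vector cells, leaving out a separate list of collagen and matrix genes, with no threshold stated, and all 10 were found by Ensembl identifier among the 57820 gene rows of the count table. That difference is therefore a description of why the genes were chosen, and no test of it is given. All 10 passed the filter on low counts, which left 17096 genes for the tests.

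The study asks how MYC overexpression bears on the response to tipifarnib, an inhibitor of farnesyltransferase, the enzyme that attaches a farnesyl lipid to RAS and other proteins. The groups were MYC cells with tipifarnib, MYC cells with DMSO, control cells with tipifarnib and control cells with DMSO, each made up of 1 library from each line. The lines were A549, a lung line, SKOV3, an ovarian line, and MDA-MB-231, a breast line. Messenger RNA was sequenced from stable, puromycin-selected cells. MYC cells carried the lentiviral vector pCDH-puro-cMyc and control cells the vector pCDH-CMV, so that every group had been transduced and selected with puromycin. The drug was left on for 48 h, A549 receiving 10 µM and the other lines 20 µM. The replicates of a group were thus different lines, with no repeat culture of a line, and a p-value reflects only how far these samples spread. Where only 1 library stood behind a value, it has no replicate check.

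MYC is a transcription factor that binds DNA as a dimer with MAX, at E-box sequences, and raises many genes of growth. It can also lower transcription, among other routes by binding MIZ1 (ZBTB17) at the promoters of genes that MIZ1 activates. The 10 genes come from several processes. CCBE1, CCDC80, OLFML2A and CEMIP2 act outside the cell or at its surface. CLDN2, JPH2 and MDGA1 act at junctions and membrane contacts, and SYTL2, BNIP3L and ZMIZ1 inside the cell.

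Gene counts per library ran from 20481363 to 26962994. Levels are CPM, counts scaled to a common library size with TMM, which also allows for differences in library composition. They are not divided by gene length, so levels are compared between libraries and not between genes. The ratio of MYC cells to control cells for MYC RNA was between 3.53 and 10.2 in the 6 pairs, and vector and endogenous transcripts are counted together. MYC RNA also differed with the drug, so tipifarnib pairs and DMSO pairs are not at the same MYC ratio. For A549, SKOV3 and MDA-MB-231 in turn, tipifarnib over DMSO was 0.555, 1.24 and 2.25 in MYC cells. In control cells it was 1.37, 2.06 and 2.36. Of the markers set for each line, ALDH1A1 was at 7911 to 9378 CPM in A549, PAX8 at 173 to 265 in SKOV3 and VIM at 887 to 1408 in MDA-MB-231, where it overlapped the 716 to 1021 of SKOV3. AKR1B10, AKR1C2 and KRT18 were highest in A549, ERBB2 in SKOV3 and ZEB1 in MDA-MB-231. Other markers set did not follow their line. SFTA3 had 0 counts in A549, and SPARC reached at most 0.768 CPM in MDA-MB-231. KRT8, set for SKOV3, was at 452.5 to 772 CPM there, against 2708 to 5201 in A549. CLDN3, also set for SKOV3, was at 1.52 to 5.46 CPM there and 1.39 to 5.02 in A549. TGFBI, set for MDA-MB-231, was at 11.8 to 55.8 CPM there, against 230 to 1312 in A549. PTPRC, the leukocyte marker, reached at most 0.505 CPM in any library. Of the fibroblast markers, PDGFRB reached at most 4.99 CPM, in MDA-MB-231. COL1A1 reached 304 CPM in SKOV3, 18.8 in A549 and 11.1 in MDA-MB-231. Whether other cell types were present was not tested. In bulk cultures, fewer cells that express a gene and less RNA per cell cannot be told apart.

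**Figure D1:**
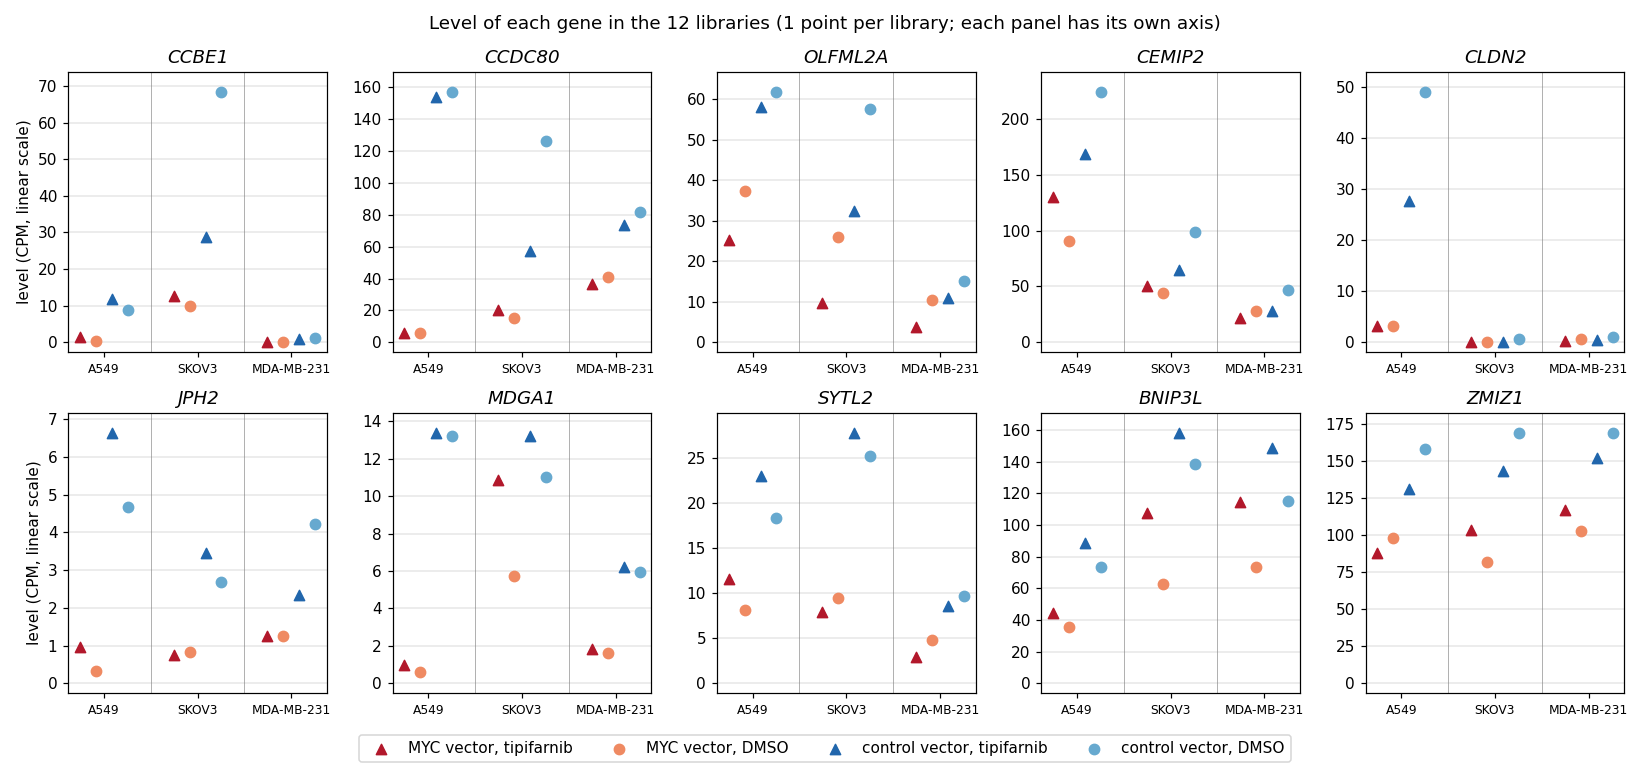
Level of each gene (CPM, linear axis, 1 panel per gene with its own axis) in the 12 libraries, by line; triangles are tipifarnib, circles DMSO, red and orange MYC cells, blue control cells. In every line and treatment the MYC point lies below its control point, CLDN2 in SKOV3 with tipifarnib being at 0 against 2 counts.

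Promoter sequences were looked at first, since the genes were chosen for a shared direction with the MYC vector. Of the 10 genes, 7 were in RefSeq's promoter table (GRCh38.p14), with 9 windows of 300 bases, each running from 250 bases before to 50 bases after a transcription start. ZMIZ1, SYTL2 and BNIP3L had no entry. The counts were made on hg19, so these coordinates are those of the sequence only. The canonical E-box, CACGTG, which reads the same on both strands, was in 0 of the 9 windows, and in 7.26% of all 35116 windows of the table. The GC box, GGGCGG on either strand, was in 3 of the 9, those of JPH2 and CEMIP2 and the first of OLFML2A, against 45% of all windows. TATAAA on either strand was in 0 of the 9, against 11.5% of all windows. GC content ran from 43.3% to 76.3%, with a median of 58.7% over all windows. The windows of CCBE1 and CCDC80, the genes with the largest fitted differences, and the first window of OLFML2A, the gene that also fell in tipifarnib, are shown 5′ to 3′ on the gene's strand, with GC boxes in capitals.
CCBE1, chr18:59697374-59697673, minus strand: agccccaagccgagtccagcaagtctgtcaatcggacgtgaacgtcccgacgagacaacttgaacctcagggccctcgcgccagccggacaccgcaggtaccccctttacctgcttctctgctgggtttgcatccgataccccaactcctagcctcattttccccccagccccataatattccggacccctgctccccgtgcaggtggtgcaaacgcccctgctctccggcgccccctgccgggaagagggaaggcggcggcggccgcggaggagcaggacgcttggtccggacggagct
CCDC80, chr3:112641094-112641393, minus strand: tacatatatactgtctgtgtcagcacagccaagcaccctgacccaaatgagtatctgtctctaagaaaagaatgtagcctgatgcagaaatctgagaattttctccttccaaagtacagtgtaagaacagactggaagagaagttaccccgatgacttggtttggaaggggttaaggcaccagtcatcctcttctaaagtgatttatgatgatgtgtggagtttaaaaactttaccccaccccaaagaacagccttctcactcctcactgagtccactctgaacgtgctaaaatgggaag
OLFML2A, chr9:124776883-124777182, plus strand: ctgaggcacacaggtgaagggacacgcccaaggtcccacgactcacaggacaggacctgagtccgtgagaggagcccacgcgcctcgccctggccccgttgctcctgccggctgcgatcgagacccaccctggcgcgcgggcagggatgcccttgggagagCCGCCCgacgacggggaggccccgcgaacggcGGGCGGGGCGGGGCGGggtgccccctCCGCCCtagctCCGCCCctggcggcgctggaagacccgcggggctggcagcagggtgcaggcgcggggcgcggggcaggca
The OLFML2A window holds 6 GC boxes and 34 CpG dinucleotides, that of CCBE1 0 GC boxes and 25 CpG, and that of CCDC80 0 and 2. A match is a run of letters and not a bound site, and the absence of CACGTG in a window of this length says nothing of binding by MYC.

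Of the secreted and surface genes, CCBE1 (ENSG00000183287.9) encodes a secreted cofactor of the maturation of VEGF-C, the growth factor of lymphatic vessels. In A549, CCBE1 was at 1.47 CPM with tipifarnib and 0.379 with DMSO in MYC cells, against 11.8 with tipifarnib and 8.84 with DMSO in control cells. SKOV3 had the highest levels, 12.7 CPM with tipifarnib and 9.98 with DMSO in MYC cells, against 28.6 and 68.4 in control cells with tipifarnib and with DMSO. In MDA-MB-231 the gene had few counts, 5 in each MYC library, against 20 counts in control cells with tipifarnib and 25 with DMSO. MYC libraries were below control libraries in every line, but MYC cells of SKOV3 overlapped control cells of A549 in level. The MYC level was 8.05-fold lower with tipifarnib and 23.3-fold lower with DMSO in A549, 2.26-fold and 6.85-fold in SKOV3, and 5.07-fold and 5.57-fold in MDA-MB-231. In MDA-MB-231 the exact 95% interval of the ratio of MYC to control cells with DMSO was 0.0536 to 0.477. Intervals of this kind cover counting error only. An antisense gene whose exons overlap those of CCBE1 by 355 bases had 0 to 6 counts.

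CCDC80 (ENSG00000091986.11), a secreted protein found in the extracellular matrix, had the largest ratio of any of the 10 genes in A549. It was at 5.97 CPM with tipifarnib and 5.77 with DMSO in MYC cells of that line, against 154 and 157 in control cells with and without the drug. In SKOV3 the levels were 20.5 CPM with tipifarnib and 15.1 with DMSO in MYC cells, against 57.6 and 126 in control cells with and without the drug. In MDA-MB-231 they were 36.9 and 40.8 CPM in MYC cells with and without tipifarnib, against 73.6 and 81.7 in control cells with and without the drug. All 6 MYC libraries, at 40.8 CPM or less, lay below all 6 control libraries, at 57.6 CPM or more. The size differed by line, with the mean of the pairs 26.5-fold lower in MYC cells of A549, 4.85-fold lower in SKOV3 and 1.997-fold lower in MDA-MB-231. In SKOV3 the pairs also differed from each other, at 2.82-fold with tipifarnib and 8.35-fold with DMSO.

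OLFML2A (ENSG00000185585.15), a secreted olfactomedin-domain protein, was lower in MYC cells of every line. With tipifarnib it was at 25.3 CPM in MYC cells of A549, 9.62 in those of SKOV3 and 3.86 in those of MDA-MB-231, against 58.2, 32.4 and 10.9 in control cells of the same lines. With DMSO the MYC cells had 37.3, 26.0 and 10.4 CPM, against 61.8, 57.5 and 15.1 in control cells. Within each line the MYC library with tipifarnib was the lowest of the 4 and the control library with DMSO the highest. Means of the pairs were 1.95-fold lower with MYC in A549, 2.73-fold in SKOV3 and 2.02-fold in MDA-MB-231.

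CEMIP2 (ENSG00000135048.9), also called TMEM2, is a membrane protein reported to degrade hyaluronan at the cell surface. In MYC cells it was at 130.3 CPM with tipifarnib and 90.7 with DMSO in A549, against 168 and 224 in control cells with and without the drug. SKOV3 had 50.6 and 44.0 CPM in MYC cells with and without tipifarnib, against 65.0 and 98.4 in control cells with and without the drug. MDA-MB-231 had 21.996 and 28.2 CPM in MYC cells with and without tipifarnib, against 28.4 and 46.7 in control cells with and without the drug. The ratio was close to the same in the 3 lines with tipifarnib, 1.29-fold lower in A549, 1.28-fold in SKOV3 and 1.29-fold in MDA-MB-231. With DMSO it was 2.47-fold, 2.24-fold and 1.65-fold lower in the same lines. In MDA-MB-231 the MYC library with DMSO and the control library with tipifarnib were nearly level.

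Of the junction and membrane-contact genes, CLDN2 (ENSG00000165376.6), a claudin that forms a cation and water pore in tight junctions, was mainly an A549 transcript. In A549 it was at 3.26 CPM with tipifarnib and 3.16 with DMSO in MYC cells, against 27.6 and 49.0 in control cells with and without the drug. In MDA-MB-231 the MYC libraries held 8 counts with tipifarnib and 13 with DMSO, against 10 and 23 counts in control cells. In SKOV3 the MYC libraries held 0 counts with tipifarnib and 2 with DMSO, against 2 and 16 counts in control cells. The tipifarnib pair of SKOV3 was at or under the floor of 3 counts in each library, so it gives no ratio, and the DMSO pair had a ratio of MYC to control of 0.108, with an exact 95% interval of 0.0120 to 0.458. In A549 MYC cells were 8.47-fold lower with tipifarnib and 15.5-fold lower with DMSO. In MDA-MB-231 the interval of the ratio included 1 in both pairs, at 0.217 to 1.78 with tipifarnib and 0.236 to 1.04 with DMSO. These intervals show how little such few counts fix the ratio. They cover counting error only and are no test of the difference, which chose the gene.

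JPH2 (ENSG00000149596.6), a junctophilin, ties the plasma membrane to the endoplasmic or sarcoplasmic reticulum and is best known from heart muscle. It had few counts, from 8 to 146 per library. In A549 it was at 0.964 CPM with tipifarnib and 0.337 with DMSO in MYC cells, against 6.64 and 4.66 in control cells with and without the drug. SKOV3 had 0.761 and 0.823 CPM in MYC cells with and without tipifarnib, against 3.46 and 2.69 in control cells with and without the drug. MDA-MB-231 had 1.26 and 1.25 CPM in MYC cells with and without tipifarnib, against 2.33 and 4.23 in control cells with and without the drug. The highest of the 6 MYC libraries was below the lowest of the 6 control libraries, which describes the difference that chose the gene. Means of the pairs were 9.77-fold lower with MYC in A549, 3.86-fold in SKOV3 and 2.50-fold in MDA-MB-231.

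MDGA1 (ENSG00000112139.10), a GPI-anchored surface protein that binds neuroligins, had MYC ratios that differed widely between lines. A549 had 0.964 CPM with tipifarnib and 0.589 with DMSO in MYC cells, against 13.4 and 13.2 in control cells with and without the drug. In SKOV3 the levels were 10.9 and 5.72 CPM in MYC cells with and without tipifarnib, against 13.2 and 11.02 in control cells with and without the drug. In MDA-MB-231 they were 1.84 and 1.59 CPM in MYC cells with and without tipifarnib, against 6.22 and 5.95 in control cells with and without the drug. MYC cells of SKOV3 with tipifarnib were thus at 82.5% of their controls, and above the control cells of MDA-MB-231. Means of the pairs were 17.6-fold lower with MYC in A549, 1.53-fold in SKOV3 and 3.55-fold in MDA-MB-231.

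Of the intracellular genes, SYTL2 (ENSG00000137501.12) encodes a synaptotagmin-like protein that binds RAB27 on secretory vesicles and helps to dock them at the plasma membrane. It was at 11.5 CPM with tipifarnib and 8.17 with DMSO in MYC cells of A549, against 22.9 and 18.3 in control cells with and without the drug. In SKOV3 MYC cells had 7.88 and 9.496 CPM with and without tipifarnib, against 27.7 and 25.2 in control cells with and without the drug. In MDA-MB-231 MYC cells had 2.93 and 4.78 CPM with and without tipifarnib, against 8.51 and 9.65 in control cells with and without the drug. Ratios stayed in a narrow range, from 1.99-fold lower in the A549 tipifarnib pair to 3.52-fold lower in the SKOV3 tipifarnib pair. Over lines the groups overlapped, since both MDA-MB-231 control libraries lay between the MYC libraries of A549.

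BNIP3L (ENSG00000104765.10), also called NIX, is a receptor of the outer mitochondrial membrane that recruits the autophagy machinery to mitochondria. With tipifarnib it was at 44.3 CPM in MYC cells of A549, 108 in those of SKOV3 and 114 in those of MDA-MB-231, against 88.6, 158 and 149 in their control cells. With DMSO the MYC cells had 35.9, 62.9 and 73.5 CPM, against 73.2, 139 and 115 in control cells. Within each line both MYC libraries lay below both control libraries. In the gene annotation at hand, exons of BNIP3L overlap those of PNMA2 on the opposite strand by 330 bases, and PNMA2 had 47 to 1644 counts against 852 to 4069 for BNIP3L. Whether strand was used in counting is not given in the sources used here, so reads of the shared stretch cannot be told apart.

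ZMIZ1 (ENSG00000108175.12), a PIAS-like coregulator of transcription, varied least of the 10, with an SD of 0.37 in log2 CPM over the 12 libraries. It was at 87.8 CPM with tipifarnib and 97.7 with DMSO in MYC cells of A549, against 131 and 158 in control cells with and without the drug. SKOV3 had 103 and 81.7 CPM in MYC cells with and without tipifarnib, against 144 and 169 in control cells with and without the drug. MDA-MB-231 had 117 and 103 CPM in MYC cells with and without tipifarnib, against 152 and 169 in control cells with and without the drug. All 6 MYC libraries were below all 6 control libraries. The ratio ran from 1.30-fold lower in the MDA-MB-231 tipifarnib pair to 2.07-fold lower in the SKOV3 DMSO pair.

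**Figure D2:**
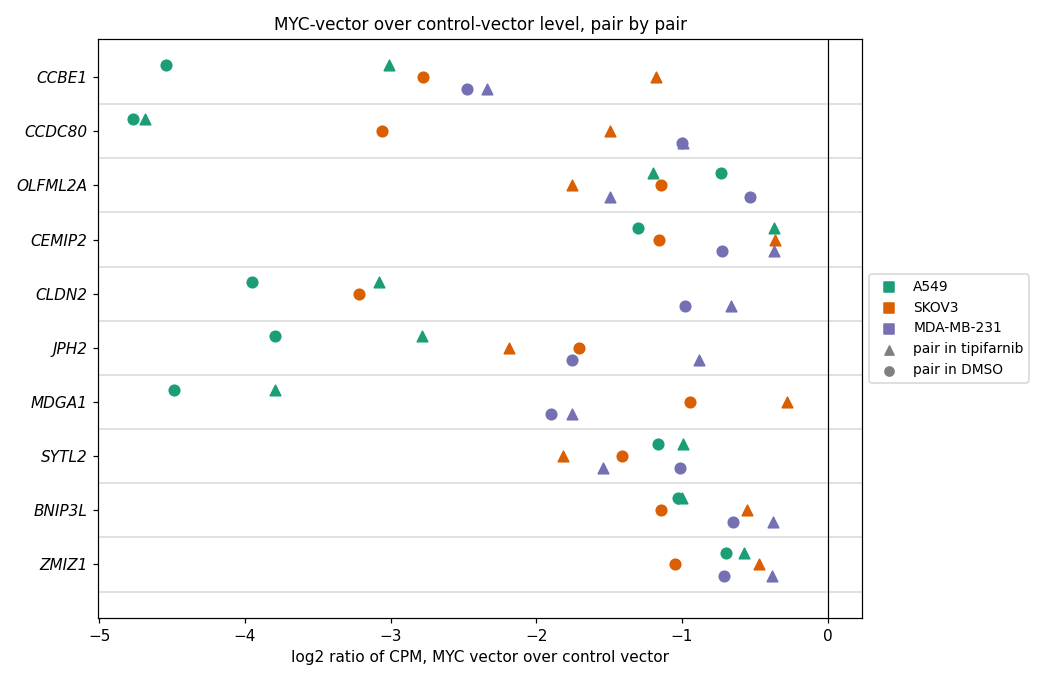
Log2 ratio of CPM in MYC cells over control cells for each pair of libraries of 1 line and treatment (colours are lines, triangles tipifarnib pairs, circles DMSO pairs). Every point lies left of 0; A549 points of CCDC80 lie at -4.69 and -4.77, while ZMIZ1 points stay between -1.05 and -0.38. The SKOV3 tipifarnib pair of CLDN2 has no point.

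Set side by side by their fitted difference over both treatments, the 10 genes are given as a first group of 5 and another 5. The cut between them was drawn for description from the values that chose the genes, so no test is given. The log2 fold change of MYC over control cells is given with a standard error worked back from the test statistic. It was -2.67 ± 0.37 for CCBE1, -2.60 ± 0.55 for CCDC80 and -2.56 ± 0.54 for CLDN2. For JPH2 it was -2.14 ± 0.38 and for MDGA1 -2.06 ± 0.51. It was -1.31 ± 0.18 for SYTL2, -1.14 ± 0.16 for OLFML2A, -0.79 ± 0.10 for BNIP3L, -0.71 ± 0.11 for CEMIP2 and -0.64 ± 0.085 for ZMIZ1. The fitted value of CLDN2 depends on the prior count, because 1 of its libraries was at 0. In this comparison 7.35% of the 17096 genes passed the threshold (Benjamini-Hochberg adjusted p under 0.05 in the edgeR quasi-likelihood test), 4.5% higher and 2.84% lower in MYC cells, and the 10 genes were chosen from its lower side. In A549 the 5 genes of the first group were between 9.77-fold and 26.5-fold lower with MYC and the other 5 between 1.55-fold and 2.11-fold. In SKOV3 the first group ran from 1.53-fold, in MDGA1, to 9.29-fold, in the 1 pair of CLDN2 with a ratio, and the other from 1.69-fold to 3.06-fold. In MDA-MB-231 the first group ran from 1.77-fold to 5.31-fold and the other from 1.43-fold to 2.42-fold. The groups were thus apart in A549 and overlapped in SKOV3 and MDA-MB-231. A549 entered the fits behind the cut, so the gap in that line is not independent of it. For MYC RNA the ratio of MYC to control cells with DMSO was 8.70 (A549), 10.2 (SKOV3) and 4.80 (MDA-MB-231). With tipifarnib it was 3.53 (A549), 6.12 (SKOV3) and 4.57 (MDA-MB-231). Each of these ratios comes from 1 pair of libraries, and a link between them and the gap was not tested.

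Tipifarnib changed 2 of the 10 genes, a comparison that did not choose them. Its response was fitted over MYC and control cells together, on 6 pairs of a tipifarnib and a DMSO library, in a model that takes both pairs of a line as independent, so the p-values can be too small. OLFML2A fell and BNIP3L rose, and the other 8 did not pass, where 11.3% of all genes passed, 4.66% higher and 6.63% lower. With 10 genes, a count of 2 is not read as differing from that background. OLFML2A was lower with tipifarnib in 6 of 6 pairs. For A549, SKOV3 and MDA-MB-231 in turn, its ratio of tipifarnib to DMSO was 0.679, 0.370 and 0.371 in MYC cells, and 0.941, 0.564 and 0.722 in control cells. The fitted log2 fold change was -0.79 ± 0.16 (SE), with an edgeR adjusted p of 0.0127. BNIP3L was higher with tipifarnib in 6 of 6 pairs, with a ratio of 1.23, 1.71 and 1.56 in MYC cells and of 1.21, 1.14 and 1.29 in control cells, in the same order of lines. Its fitted log2 fold change was 0.43 ± 0.10 (SE), with an edgeR adjusted p of 0.0268. Leaving out a line ended the calls, except that of OLFML2A without A549. Without A549, OLFML2A changed by -1.04 (edgeR adjusted p of 0.0161) and BNIP3L by 0.50 (0.0552). Without SKOV3 the changes were -0.62 (edgeR adjusted p of 0.0722) for OLFML2A and 0.41 (0.124) for BNIP3L, and without MDA-MB-231 -0.71 (0.180) and 0.40 (0.172). Over all alternatives the adjusted p ran from 0.000205 to 0.9998 for OLFML2A and from 0.00224 to 0.9998 for BNIP3L, the highest coming from the fit without the line as block.

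The other 8 genes had no shared direction that passed. MDGA1 was higher with tipifarnib in 6 of 6 pairs, by ratios from 1.01 to 1.90, but its fitted change of 0.36 ± 0.46 (SE) had an edgeR adjusted p of 0.662. CLDN2 was lower in 4 of the 5 pairs that give a ratio, with a fitted change of -0.94 ± 0.51 (edgeR adjusted p of 0.269). CEMIP2 was lower in 4 of 6 pairs, with a fitted change of -0.23 ± 0.11 (edgeR adjusted p of 0.226). The fitted changes of CCBE1, 0.16 ± 0.35, CCDC80, -0.14 ± 0.49, JPH2, 0.20 ± 0.36, ZMIZ1, -0.051 ± 0.084, and SYTL2, -0.017 ± 0.18, were each smaller than their standard errors. In CCBE1 and CCDC80 the pairs of SKOV3 pointed opposite ways. CCBE1 was at 1.27 of its DMSO level in MYC cells and at 0.419 in control cells, and CCDC80 at 1.35 and 0.456. The control library of SKOV3 with DMSO was the highest of the 4 for both genes.

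**Figure D3:**
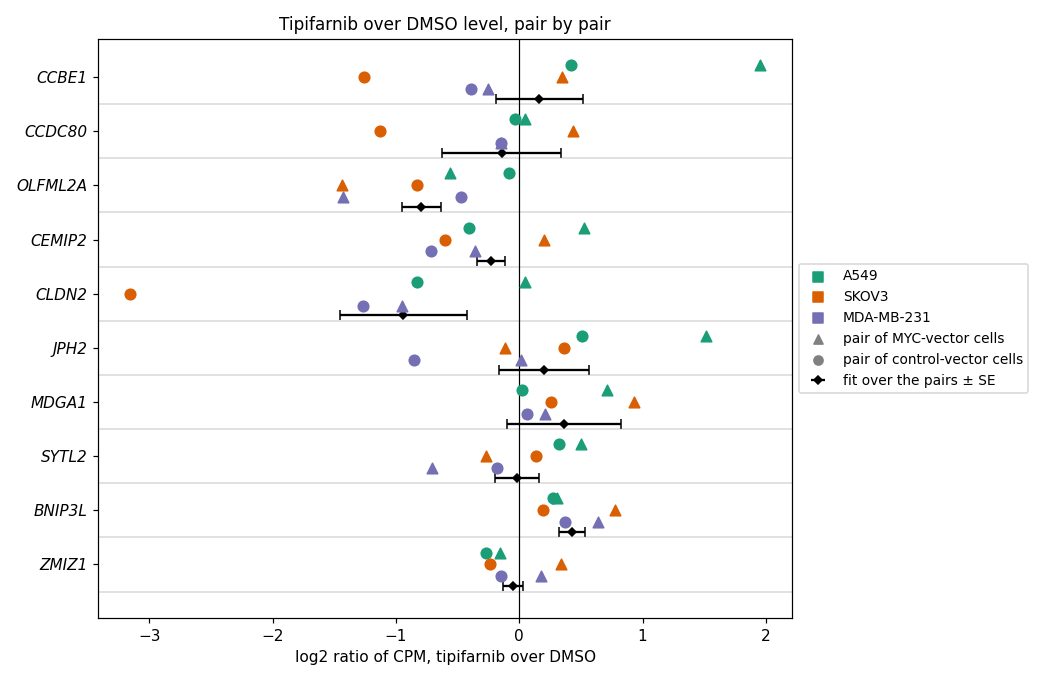
Log2 ratio of CPM with tipifarnib over DMSO for each pair of libraries of 1 line and genotype (colours are lines, triangles MYC cells, circles control cells), with the fitted change over the pairs and its standard error in black. All 6 points of OLFML2A lie left of 0 and all 6 of BNIP3L right of it, while CCBE1 spreads from -1.26 to 1.96; the SKOV3 MYC pair of CLDN2 has no point.

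Whether the response to tipifarnib differed between MYC and control cells was tested as an interaction. It passed for 0 of the 10 genes and for 0% of all genes, by the edgeR quasi-likelihood test, by DESeq2 and by limma-voom. At an unadjusted p under 0.05 there were 125 genes by edgeR, 118 by DESeq2 and 185 by limma-voom. CEMIP2 was the only one of the 10 among them in edgeR, with an interaction of 0.68 ± 0.23 (SE) on the log2 scale, an unadjusted p of 0.0133 and an adjusted p of 1. With tipifarnib CEMIP2 was at 1.44, 1.15 and 0.780 of its DMSO level in MYC cells of A549, SKOV3 and MDA-MB-231, against 0.752, 0.660 and 0.608 in control cells. The standard error of the interaction was widest for CLDN2, at 1.02, CCDC80, at 0.976, and MDGA1, at 0.923, so a difference of that size would not be seen.

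Line by line, in a model where both MYC and the drug may act differently in each line, tipifarnib passed for 0 of the 10 genes in A549, where 8.03% of all genes passed, for 2 in SKOV3, against 14%, and for 2 in MDA-MB-231, against 22.7%. The dose was 10 µM in A549 and 20 µM in the other lines, so dose and line cannot be told apart in A549. OLFML2A fell by 1.11 ± 0.23 (SE) in SKOV3 (edgeR adjusted p of 0.0114) and by 0.91 ± 0.25 in MDA-MB-231 (edgeR adjusted p of 0.0265). BNIP3L rose in MDA-MB-231 by 0.50 ± 0.15 (edgeR adjusted p of 0.0351). CLDN2 passed in SKOV3 with a fitted change of -3.14 ± 0.79 (edgeR adjusted p of 0.0284), from 0 and 2 counts with tipifarnib against 2 and 16 with DMSO, which depends on the prior count and was not past the threshold by limma-voom (adjusted p of 0.0648). Each of these calls rests on few libraries. OLFML2A in SKOV3 lost the call without either MYC library (changes of -0.82, edgeR adjusted p of 0.1998 to 0.204), and in MDA-MB-231 without either MYC library (-0.47, 0.3795 to 0.391) and by limma-voom (-0.86, 0.0691). BNIP3L in MDA-MB-231 and CLDN2 in SKOV3 lost it without any 1 of the 4 libraries of the line. The adjusted p then lay between 0.139 and 0.378 for BNIP3L, with changes from 0.37 to 0.64, and between 0.112 and 0.397 for CLDN2.

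Levels of the 10 genes also differed between the lines, which had no part in choosing them. Of the 10, 5 passed between A549 and SKOV3, 6 between A549 and MDA-MB-231 and 6 between SKOV3 and MDA-MB-231, where 58.1%, 57.3% and 61.6% of all genes passed, so these shares are near the background. CCBE1 was ordered SKOV3, A549, MDA-MB-231, with log2 fold changes of -2.82 ± 0.42 for A549 over SKOV3, 2.91 ± 0.49 for A549 over MDA-MB-231 and 5.73 ± 0.50 for SKOV3 over MDA-MB-231 (edgeR adjusted p from 7.17e-06 to 0.000568). CLDN2 was highest in A549, by 6.52 ± 0.68 over SKOV3 and 4.48 ± 0.61 over MDA-MB-231 (edgeR adjusted p of 2.88e-05 and 0.000145). CEMIP2 and OLFML2A were both ordered A549, SKOV3, MDA-MB-231, and each neighbouring pair passed. CEMIP2 differed by 1.25 ± 0.14 between A549 and SKOV3 and by 1.02 ± 0.14 between SKOV3 and MDA-MB-231, and OLFML2A by 0.71 ± 0.19 and 1.55 ± 0.20. BNIP3L was lowest in A549, with -0.96 ± 0.13 for A549 over SKOV3 and -0.95 ± 0.13 for A549 over MDA-MB-231, and SKOV3 and MDA-MB-231 did not differ beyond the spread. SYTL2 was higher than in MDA-MB-231 by 1.28 ± 0.22 in A549 and by 1.37 ± 0.22 in SKOV3, and A549 and SKOV3 did not differ beyond the spread. CCDC80, JPH2 and ZMIZ1 passed between no pair of lines.

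For SKOV3 against MDA-MB-231, MDGA1 was higher by 1.76 ± 0.59 (edgeR adjusted p of 0.0242) and CLDN2 lower, with -2.04 ± 0.75 (edgeR adjusted p of 0.0358). MDGA1 lost its call by limma-voom and without any 1 of 5 of the 8 libraries, where its change was between 1.18 and 1.71 (adjusted p from 0.0601 to 0.112), namely both MYC libraries of SKOV3 and, in MDA-MB-231, both control libraries and the MYC library with tipifarnib. CLDN2, with its few counts, lost its call without either MYC library of SKOV3 or of MDA-MB-231 or without the SKOV3 control library with tipifarnib, where its change was between -1.52 and -2.07 (edgeR adjusted p from 0.0608 to 0.113). The other line differences named here held under every alternative run, these being other scaling, filter and tools and the loss of any 1 library.

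Relatives and partners of the 10 genes were taken from 10 lists, with the 10 genes themselves left out, and 141 of their 166 genes could be tested. With the MYC vector 5 of the 141 rose (3.55%) and 8 fell (5.67%), against 4.5% and 2.84% of all genes. With tipifarnib 13 rose (9.22%) and 10 fell (7.09%), against 4.66% and 6.63%. The lists were chosen with earlier results of these data known, among them the rises of JPH1 with MYC and of autophagy genes with tipifarnib. Shares above those of all genes are therefore not read as a result. The median log2 fold change was -0.07 with MYC and -0.0070 with tipifarnib, beside -0.00027 and 0.00069 over all genes. None of the 13 MYC calls held when any 1 line was left out, where 10 genes of all passed with A549 left out, 14 with SKOV3 left out and 148 with MDA-MB-231 left out. Of the 23 tipifarnib calls, 11 held with A549 left out, 12 with SKOV3 left out and 1, SQSTM1, with MDA-MB-231 left out. By limma-voom JPH1 (adjusted p of 0.0556) and PINK1 (adjusted p of 0.0742) lost their MYC calls, and the tipifarnib calls all held. With no low count filter NIPSNAP2 lost its MYC call (edgeR adjusted p of 0.0515), and HDAC1, HDAC3, MYO5A and SENP1 their tipifarnib calls (edgeR adjusted p from 0.0706 to 0.122). All log2 fold changes of list genes that follow are ± SE and passed at an edgeR adjusted p under 0.05 unless stated.

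In the list of VEGF-C processing and lymphatic signalling, which goes with CCBE1, 1 of 13 genes fell with MYC and 0 rose, with a list median of -0.25. That gene was NRP1, a co-receptor of semaphorins and VEGF, at -0.88 ± 0.18. VEGFC itself changed by 0.41 ± 0.21, with an edgeR adjusted p of 0.261. With tipifarnib 0 of 13 passed, and the median was 0.031. Of 11 genes of hyaluronan turnover, the process of CEMIP2, 0 passed with MYC (median -0.30). With tipifarnib 2 of the 11 fell (median -0.21). They were the hyaluronan receptor HMMR, at -0.56 ± 0.11, and VCAN, a proteoglycan that binds hyaluronan, at -0.89 ± 0.20. VCAN held only 2 to 16 counts in the MDA-MB-231 libraries. Of 9 olfactomedin-domain and sushi-repeat genes, the relatives of OLFML2A and CCDC80, 1 rose with MYC and 0 fell (median 0.067). It was ADGRL1, an adhesion receptor with an olfactomedin domain, at 0.63 ± 0.13. With tipifarnib 2 of the 9 fell (median -0.42), ADGRL1 at -0.71 ± 0.13 and ADGRL2 at -0.42 ± 0.091.

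Of 20 tight junction genes, 1 fell with MYC and 0 rose (median 0.039). The gene was CGNL1, paracingulin, at -1.16 ± 0.25, which was lower in 5 of 6 pairs. Other claudins tested did not pass with MYC. With tipifarnib 2 rose and 1 fell (median 0.15), CLDN4 at 1.34 ± 0.26 and CLDN12 at 0.45 ± 0.11 against cingulin (CGN) at -1.25 ± 0.30. Among 15 junctophilin and calcium release genes, 2 rose and 2 fell with MYC (median -0.072). JPH1, the relative of JPH2 found mainly in skeletal muscle, rose by 1.89 ± 0.42 where JPH2 was lower. Counts of JPH1 in A549 were 25 with tipifarnib and 14 with DMSO in MYC cells, against 2 and 0 in control cells, and its rise was known from earlier results of these data. The calcium release channel ITPR1 rose by 1.17 ± 0.24. The calcium channel subunit ORAI2 changed by -0.47 ± 0.12 and the calcium pump ATP2A3 by -1.26 ± 0.33. In SKOV3 ATP2A3 had 24 counts with tipifarnib and 37 with DMSO in MYC cells, against 30 and 41 in control cells. MDA-MB-231 had 26 and 14 against 51 and 50, and A549 206 and 223 against 1055 and 423. With tipifarnib 3 of the 15 rose and 0 fell (median 0.004), ITPR3 by 0.60 ± 0.075, ORAI3 by 1.21 ± 0.17 and the calcium sensor STIM1 by 0.37 ± 0.090. Of 5 neuroligins and neurexins, the partners of MDGA proteins, 0 passed with MYC (median -0.32) or with tipifarnib (median -0.22).

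Of 12 genes of RAB27 and its effectors, 2 fell with MYC and 0 rose (median -0.28). RAB27B, a GTPase of secretory vesicles that SYTL proteins bind, changed by -0.72 ± 0.18, and SYTL5, a relative of SYTL2, by -2.24 ± 0.56. SYTL5 held at most 1 count in any MDA-MB-231 library. With tipifarnib 3 rose and 1 fell (median 0.44), RAB27B by 0.94 ± 0.18, MLPH by 0.86 ± 0.18 and the motor MYO5A by 0.32 ± 0.086, against SYTL5 at -2.03 ± 0.57. Of 21 mitophagy genes, 2 rose and 2 fell with MYC (median -0.047). OPTN, an autophagy receptor, changed by -0.56 ± 0.14 and the kinase PINK1 by -0.54 ± 0.14, against the inner membrane receptor PHB2 at 0.51 ± 0.085 and NIPSNAP2 at 0.37 ± 0.083. With tipifarnib 4 of the 21 rose and 0 fell (median 0.21), OPTN by 1.15 ± 0.14, the receptor SQSTM1 by 1.33 ± 0.17, PINK1 by 0.77 ± 0.14 and MAP1LC3B, which coats autophagosomes, by 0.72 ± 0.16. These responses were fitted on the same libraries as those to MYC, with a shared estimate of the spread, so the calls are not independent. The rise of autophagy genes with tipifarnib was known from earlier results of these data when the lists were chosen.

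Of 18 genes of SUMO conjugation and the PIAS family, to which ZMIZ1 is related, 0 passed with MYC (median -0.024) and 1 fell with tipifarnib (median -0.15), the SUMO protease SENP1, at -0.35 ± 0.091. Of 17 partners and corepressors in the MYC network, 0 passed with MYC (median 0.12). With tipifarnib MXD1, which competes with MYC for MAX, rose by 1.41 ± 0.24, and 3 of the 17 fell, SIN3A at -0.39 ± 0.076, HDAC1 at -0.34 ± 0.091 and HDAC3 at -0.34 ± 0.090 (median -0.032).

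**Figure D4:**
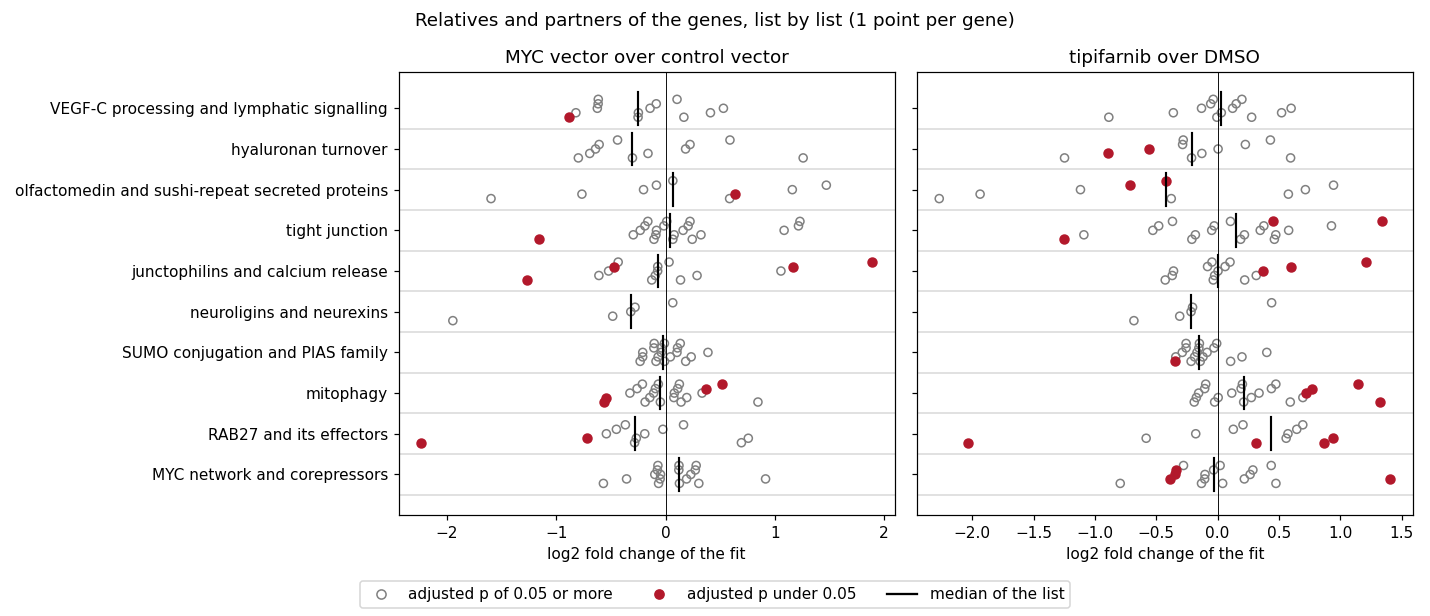
Log2 fold change of each tested list gene (1 point per gene) with the MYC vector over control (left) and with tipifarnib over DMSO (right), by list; filled red points passed at an adjusted p under 0.05, bars are list medians. Of 141 genes, 13 are filled on the left and 23 on the right, with mitophagy points on the right all above 0 among those filled.

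Genes with the pattern most like each of the 10 were sought among 11523 tested genes, by the root mean square difference of log2 CPM over the 12 libraries, each profile centred on its own mean. They are given here for 8 of the 10. The closest were FLOT1 to ZMIZ1, at 0.215, ATP2B4 to BNIP3L, at 0.218, SEMA3C to OLFML2A, at 0.289, ZNF532 to CEMIP2, at 0.311, and PLSCR4 to SYTL2, at 0.378. For MDGA1 the nearest was COL6A2, at 0.712, for CCBE1 SORCS2, at 0.836, and for CLDN2 DNM1, at 1.14. The next in line were ALDH6A1 for ZMIZ1, RUFY2 for BNIP3L, SYNM for OLFML2A, CA12 for CEMIP2, MYLK for SYTL2, ADAMTS15 for MDGA1, COL5A1 for CCBE1 and VGLL3 for CLDN2. None of these nearest genes was itself 1 of the 10. These distances describe 12 libraries in which line, vector and drug all move, and the profiles themselves had an SD of 0.37 for ZMIZ1 up to 2.86 for CLDN2. The distance is not scaled to that SD, so a small value for a gene that varies little is not by itself a closer match. FLOT1 was at 0.215 where ZMIZ1 had an SD of 0.37, and SEMA3C at 0.289 where OLFML2A had 1.25.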

How the data were processed

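Per the labels' protocols, 1.3 µg of total RNA per culture went into a SMARTER mRNA-Seq kit, and the submitters' processing notes name TopHat2, HTSeq, DESeq2 and hg19 without versions, roles or the strand setting. The deposited table holds raw counts per gene made by the authors, with 5 HTSeq summary rows (17.5% to 19.9% of all counts) that were left out. The 10 genes and the lists were chosen with earlier results of these data known. Counts were scaled with TMM and filtered with filterByExpr over the 4 groups, leaving 17096 genes. These were tested with the quasi-likelihood method of edgeR 4.0.16, p-values being adjusted over all of them (Benjamini-Hochberg), and 0.05 was the threshold. Each SE is the size of the log2 fold change divided by the square root of its F statistic, and was not estimated separately. Comparisons over lines used line and group (6 residual degrees of freedom, biological coefficient of variation 0.2446). Comparisons within a line let MYC and the drug act differently in each line (3 residual degrees of freedom, 0.1354), so that the interaction of MYC and tipifarnib is their error term. Lines pair the libraries. Deviations from the group means correlated across genes, which are not independent replicates, at 0.829 to 0.922 for 18 pairs within a line and at -0.551 to -0.307 for 36 pairs between lines. Each group mean is taken over the lines, so negative values between lines follow from the positive ones within a line. Ratios of single libraries carry exact 95% intervals, and the floor is 3 counts per library. Named genes were the 10, MYC, up to 4 genes of each list with the smallest p per comparison, and the 2 nearest profiles (mean log2 CPM at least 1, prior count 2). The nearest profiles of CCDC80 and JPH2 are not reported here. Alternatives were DESeq2 1.42.0, DESeq2 size factors, limma-voom (limma 3.58.1), no low count filter, no replicate block, and leaving out a line or a library. Scripts were tested on simulated data. Software was R 4.3.3, Python 3.11.15 and matplotlib 3.10.9.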

Additional observations from a re-analysis of the deposited data

Results flagged for a closer look

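CCBE1 was higher with tipifarnib than with DMSO in both pairs of A549, with a mean log2 ratio of 1.19, and lower in both pairs of MDA-MB-231, with a mean of -0.32, where its counts were 5 to 25 per library. SYTL2 was likewise higher with tipifarnib in both pairs of A549, with a mean log2 ratio of 0.41, and lower in both pairs of MDA-MB-231, with a mean of -0.45. Both genes were flagged because the ratios of these lines lay on opposite sides of 1. Neither gene passed for tipifarnib within either line. The edgeR adjusted p was 0.295 in A549 and 0.767 in MDA-MB-231 for CCBE1, and 0.234 and 0.184 for SYTL2. In A549 the MYC cells had 32 counts of CCBE1 with tipifarnib and 9 with DMSO, and the fitted change in that line was 0.79. In MDA-MB-231 the exact 95% interval of the CCBE1 ratio was 0.193 to 3.64 in MYC cells and 0.401 to 1.43 in control cells, and that of the SYTL2 ratio 0.454 to 0.822 in MYC cells and 0.718 to 1.082 in control cells. Counting error alone thus allows no difference in 3 of these 4 pairs. The difference between the lines was not tested, and the dose was 10 µM in A549 and 20 µM in MDA-MB-231, so dose and line cannot be told apart.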

How the results depend on the processing

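The replicates of a group are different lines, so leaving out a line leaves 2 libraries per group, and few counts limit CCBE1 in MDA-MB-231, CLDN2 outside A549 and JPH2.

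For tipifarnib over both genotypes, 3032 genes passed by DESeq2 and 0 without the replicate block, where 0 of the 10 genes passed. Without a line, 87 to 1174 genes and 0 to 1 of the 10 passed. For MYC, 2405 genes passed by DESeq2, 0 without the replicate block and 10 to 148 without a line.

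Within A549, 2321 genes and 1 of the 10 passed with no low count filter, and 1485 genes and 1 of the 10 by limma-voom. By limma-voom 2562 genes and 1 of the 10 passed in SKOV3, and 4045 genes and 1 of the 10 in MDA-MB-231. A count of 1 among 10 genes is not read as differing from the background of all genes. Without a library of the line, 317 to 569 genes passed in A549, 492 to 1469 in SKOV3 and 528 to 706 in MDA-MB-231, and 1 to 2 of the 10 in SKOV3 and 0 to 1 in MDA-MB-231. A pair's lone library is then assumed to vary like the other groups.

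Changes that turned sign had not passed. SYTL2 with tipifarnib was 0.0016 with no low count filter, 0.037 by limma-voom, 0.072 without the replicate block, and -0.24 to 0.20 without a line. CCBE1 was -0.14 by limma-voom, -0.24 without the replicate block, and -0.34 to 0.61 without a line. Without a line, JPH2 ran from -0.097 to 0.49, ZMIZ1 from -0.094 to 0.043 and ADAMTS14 from -0.28 to 0.58 with tipifarnib, the interaction of CCDC80 from -0.036 to 0.84, and NRXN3 with MYC from -1.42 to 0.93. The cause was not tested.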
